A study of Mus musculus with 8 samples.

Results

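The 10 genes described here belong to Nodal and BMP signaling: the ligands Nodal and Bmp4, the Nodal co-receptor Tdgf1, the inhibitors Lefty1, Lefty2, and Smad7, and the Id genes Id1 to Id4. They were chosen by name, and all 10 were found among the 24354 genes of the expression table. RNA sequencing was carried out in duplicate for 4 mouse cell types, giving 8 libraries. ESCs were the E14 embryonic stem cell line, labeled wild type (wt), cultured with serum and LIF on inactivated C3H mouse embryonic fibroblasts (MEF). NSCs were neural stem cells heterozygous for the OG2 and ROSA26 transgenes (OG2+/- ROSA26+/-), which carry GFP driven by the Oct4 distal enhancer and lacZ expressed in all cells, and they were cultured on gelatin with EGF and bFGF. EPSCs were extended pluripotent stem cells, also labeled wt, a line established from C57BL/6 embryos of the 8-cell stage and sequenced at passage 15, and they were maintained on C3H MEF in LCDM/N2B27 medium, which holds LIF, CHIR99021, dimethindene maleate, and minocycline hydrochloride. Hybrid cells, from line 2-2 and sequenced at passage 10, were obtained by PEG-mediated fusion of EPSCs with these NSCs, selected by Oct4-GFP, found to be tetraploid, and kept in LCDM medium on C3H MEF. A group is 2 libraries of a single line, so the spread between them says nothing of other derivations or fusions. The comparison of the hybrid cells with both parents asks how like the EPSC parent the fused cells are, and ESCs are the reference for conventional pluripotency.

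Nodal is a secreted TGF-beta family ligand that signals through activin receptors and SMAD2/3 together with the co-receptor CRIPTO, the product of Tdgf1. It induces its own inhibitors, the Lefty proteins, which form a feedback loop that patterns the early embryo. BMP4 signals through SMAD1/5 and induces the Id genes. ID proteins lack a DNA-binding region and hold E proteins away from DNA, and in mouse ESCs they are known as mediators by which BMP with LIF supports self-renewal. SMAD7 is an intracellular inhibitor of both branches.

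Expression was given as FPKM, the number of fragments scaled by transcript length and by a total for the library whose definition is not given in the sources used here, so levels can be compared between genes of a library. From the steps between low FPKM values, this total was 22.0 to 32.5 fragments in units of 1000000, an effective depth that equals the mapped fragments only if libraries were not rescaled against each other. Pluripotency markers (Pou5f1, Nanog, Sox2, Zfp42, Esrrb, and Tfcp2l1) summed to 1649.5 to 2147 FPKM in ESC, EPSC, and hybrid cell libraries and to 117 and 120.2 FPKM in NSC libraries, where Sox2, a gene that neural stem cells also use, made up 116 and 119.6 FPKM and the other 5 markers were at 0 to 0.364 FPKM. The 7 NSC markers summed to 3688 and 3737 FPKM in NSCs and to 10.4 to 19.1 FPKM elsewhere. The 12 feeder fibroblast markers summed to 13.3 and 14.6 FPKM in ESCs, 10.6 and 11.8 FPKM in NSCs, 75.9 and 78.0 FPKM in EPSCs, and 223 and 297 FPKM in hybrid cells. In NSCs, which were grown on gelatin, most of the sum was Prrx1 (6.36 and 7.7 FPKM) and Pdgfra (3.13 and 2.91 FPKM). Col1a2, Lum, Twist2, and Fap were at 0 in both NSC libraries. In bulk RNA, fewer cells of a type and less RNA per cell cannot be told apart.

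**Figure D1:**
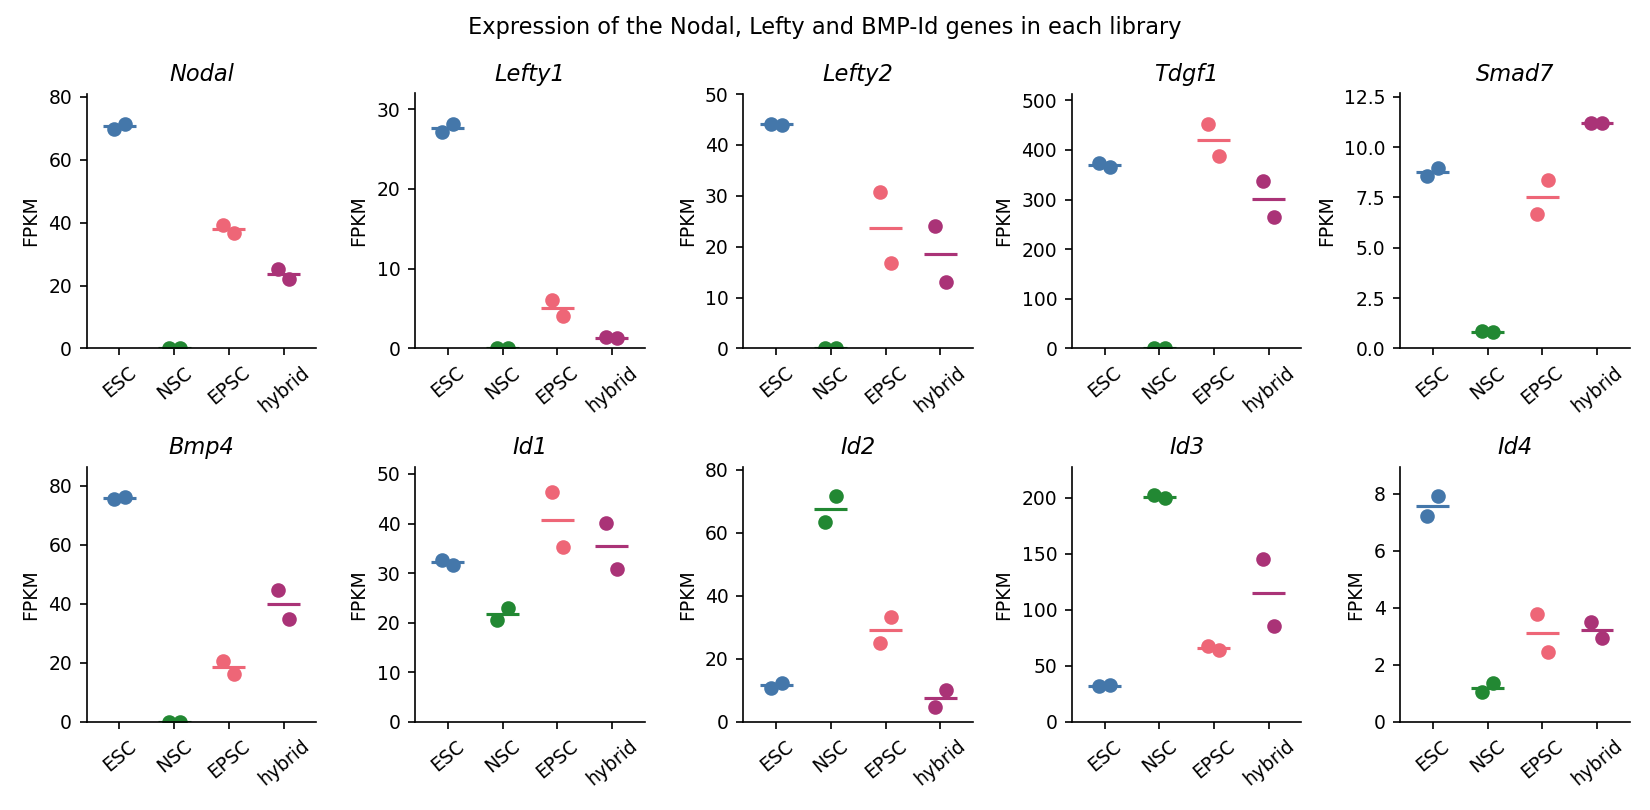
FPKM (linear axis from 0, a scale of its own for each gene) of the 10 genes in ESC, NSC, EPSC, and hybrid cell libraries, with 1 point a library and a line at the mean of 2. Nodal, Lefty1, Lefty2, Tdgf1, and Bmp4 lie near 0 in both NSC libraries, whereas Id2 and Id3 are highest there.

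Nodal was highest in ESCs and lowest in NSCs, and the hybrid cells lay below the EPSC parent. It was 69.8 and 71.5 FPKM in ESCs, 39.3 and 36.6 FPKM in EPSCs, 25.3 and 22.1 FPKM in hybrid cells, and 0 in both NSC libraries. No libraries of different groups overlapped. Hybrid cells were 1.6-fold below EPSCs (23.7 ± 2.32 against 37.9 ± 1.9 FPKM, SD, n = 2), with a log2 fold change of -0.66 (SE 0.08) and an adjusted p of 0.00095 by limma on log2(FPKM + 1). EPSCs in turn were 1.86-fold below ESCs (log2 fold change -0.88, SE 0.08, adjusted p = 9.55e-05). A count of 0 allows up to 3 fragments, which is 0.0557 FPKM of Nodal in an NSC library, so Nodal was at least 425-fold higher in hybrid cells, at least 681-fold higher in EPSCs, and at least 1268-fold higher in ESCs than in NSCs. This limit covers counting error only. Nodal lies on chromosome 10 (chr10:61417972-61425338, plus strand, GRCm38), with 3 exons in the single annotated transcript.

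Tdgf1 encodes CRIPTO, the membrane-anchored protein that Nodal needs to bind its receptors, and it was the most abundant of the 10 genes in the 3 pluripotent cell types. Its level was 453 and 388 FPKM in EPSCs, 374 and 366 FPKM in ESCs, 337 and 265 FPKM in hybrid cells, and 0 in both NSC libraries. The hybrid cell libraries were both below the other pluripotent libraries. The difference from EPSCs was 1.4-fold (log2 fold change -0.49, SE 0.12, adjusted p = 0.0133), but without EPSC library 1 it was no longer called (adjusted p = 0.0703), and without hybrid cell library 2 its log2 fold change was -0.31. Hybrid cells were 1.23-fold below ESCs, with an adjusted p of 0.0493 that rose to between 0.0701 and 0.243 in 7 of the alternative fits, those without filter, with 2 groups, and without either ESC library, either NSC library, or hybrid cell library 2. Without hybrid cell library 2 this log2 fold change was -0.14, and without hybrid cell library 1 it was -0.48. EPSCs and ESCs differed by a log2 fold change of 0.18 (95% interval -0.1 to 0.45, adjusted p = 0.219), which did not pass the test. Against the limit of 3 fragments in an NSC library, Tdgf1 was at least 4935-fold higher in hybrid cells. The gene lies at chr9:110939603-110946158 on the minus strand, with 4 annotated transcripts. Of its 100-base windows, 4.69% also occur in the pseudogene Tdgf1-ps1, which was not analyzed here.

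Lefty1 and Lefty2, neighboring genes for secreted Nodal inhibitors, were both highest in ESCs and at or near 0 in NSCs, with EPSCs and hybrid cells between them. Lefty1 was 27.2 and 28.2 FPKM in ESCs, 6.1 and 4.08 FPKM in EPSCs, 1.43 and 1.26 FPKM in hybrid cells, and 0.0249 and 0 FPKM in NSCs. Each step was larger than the spread between libraries, with no overlap. Hybrid cells were 3.78-fold below EPSCs (log2 fold change -1.36, SE 0.15, adjusted p = 0.000662) and 20.6-fold below ESCs (log2 fold change -3.61, SE 0.15, adjusted p = 3.12e-06), and EPSCs were 5.45-fold below ESCs (log2 fold change -2.26, SE 0.15, adjusted p = 2.62e-05). Lefty2 was 44.2 and 43.9 FPKM in ESCs, 30.7 and 16.8 FPKM in EPSCs, 24.0 and 13.0 FPKM in hybrid cells, and 0.0155 and 0.0154 FPKM in NSCs. Its EPSC and hybrid cell libraries overlapped. At equal replicate numbers, which are not stated to pair libraries, hybrid cells were lower in both (24.0 against 30.7 and 13.0 against 16.8 FPKM). Hybrid cells and EPSCs differed in Lefty2 by a log2 fold change of -0.34 (95% interval -1.09 to 0.4, adjusted p = 0.413), and the sign turned to 0.08 without EPSC library 1 and to 0.07 without hybrid cell library 2.

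The spread of Lefty2 between libraries was wide beside that of other genes in EPSCs and hybrid cells, but not in ESCs, where it was 1.01-fold. Its values differed 1.83-fold between EPSC libraries and 1.85-fold between hybrid cell libraries, gaps larger than those of 99.4% and 99.1% of the genes tested. EPSCs were called below ESCs in Lefty2 (1.85-fold, log2 fold change -0.92, SE 0.32, adjusted p = 0.0371), but the adjusted p was 0.0759 without filter, 0.13 and 0.124 without ESC library 1 or 2, 0.0778 and 0.0768 without NSC library 1 or 2, and 0.197 without EPSC library 2, where the log2 fold change was -0.5. Hybrid cells were called below ESCs (2.38-fold, log2 fold change -1.27, SE 0.32, adjusted p = 0.00935), with an adjusted p of 0.0509 without ESC library 1. The NSC values of both genes were below the level of 3 fragments, 0.0743 FPKM for Lefty1 and 0.0465 FPKM for Lefty2, so no fold against NSCs is given.

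Lefty1 was a smaller share of the Lefty pool in hybrid cells than in ESCs or EPSCs. Lefty1 made up 38.7% ± 0.778 of the summed Lefty FPKM in ESCs (SD, n = 2). It made up 18.1% ± 2.12 for EPSCs and 7.22% ± 2.26 for hybrid cells, with no overlap between groups. The Lefty sum per unit of Nodal was 1.02 and 1.01 in ESCs, 0.938 and 0.57 in EPSCs, and 1.0 and 0.646 in hybrid cells. EPSC and hybrid cell libraries overlapped in that ratio. These shares and ratios were not tested.

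Lefty2 (chr1:180893108-180899103) and Lefty1 (chr1:180935022-180938400) lie on the plus strand of chromosome 1, 35918 bases apart, and their coding sequences of 1107 bases are 91.9% identical. The longest run shared by the transcripts is 140 bases. Of the 100-base windows, 4.8% of Lefty1 and 3.07% of Lefty2 occur in the other gene, and how such reads were assigned was not tested.

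Smad7, the intracellular inhibitor, had its highest level in hybrid cells and its lowest in NSCs. It was 11.2 FPKM in each hybrid cell library, 8.57 and 8.97 FPKM in ESCs, 6.66 and 8.37 FPKM in EPSCs, and 0.852 and 0.792 FPKM in NSCs. The hybrid cell libraries were above all other libraries. They exceeded EPSCs 1.49-fold (log2 fold change 0.53, SE 0.1, adjusted p = 0.00635) and NSCs 13.6-fold (log2 fold change 2.74, SE 0.1, adjusted p = 1.54e-07). With 0.1 added to FPKM in place of 1, the log2 fold change against NSCs was 3.62. The 1.28-fold difference from ESCs was called (log2 fold change 0.32, adjusted p = 0.0286), but its adjusted p was 0.0566 to 0.135 when any library of ESCs, NSCs, or hybrid cells was left out and 0.109 after scaling to a common sum. EPSCs and ESCs differed by a log2 fold change of -0.21 (95% interval -0.45 to 0.04, adjusted p = 0.126), called only without EPSC library 2 (adjusted p = 0.0141).

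**Figure D2:**
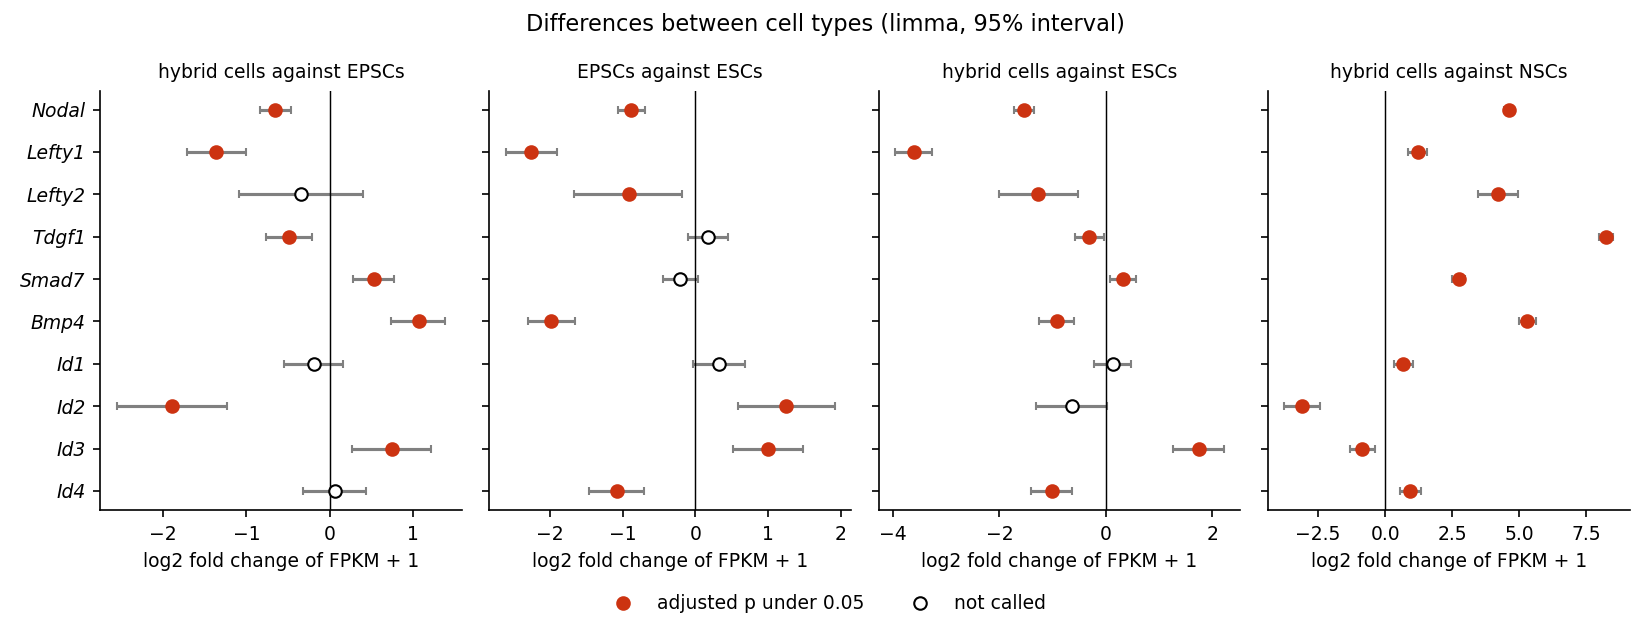
Log2 fold change of FPKM + 1 (horizontal axis, a scale of its own in each panel) with its 95% interval for the 10 genes in 4 comparisons, filled where the adjusted p was under 0.05. Lefty1 and Id2 have the largest falls from EPSCs to hybrid cells (-1.36 and -1.89) and Bmp4 the largest rise (1.07).

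Bmp4, which supports self-renewal of mouse ESCs and is a ligand of the BMP branch, was lower in EPSCs than in either other pluripotent cell type. It was 75.5 and 76.1 FPKM in ESCs, 44.7 and 34.8 FPKM in hybrid cells, 20.7 and 16.2 FPKM in EPSCs, and 0.0195 and 0.0388 FPKM in NSCs. No libraries of different groups overlapped. Hybrid cells held 2.15 times the EPSC level (39.8 ± 7.0 against 18.5 ± 3.15 FPKM, SD, n = 2), with a log2 fold change of 1.07 (SE 0.14, adjusted p = 0.00125). EPSCs were 4.1-fold below ESCs (log2 fold change -1.99, SE 0.14, adjusted p = 3.36e-05), and hybrid cells 1.9-fold (log2 fold change -0.92, SE 0.14, adjusted p = 0.000809). NSC values were below 0.0566 FPKM, the level of 3 fragments. Bmp4 (chr14:46383520-46390669, minus strand) overlaps the annotated genes Gm15217 and Gm15222, whose share of its reads was not tested. The rise of Bmp4 and Smad7 from EPSCs to hybrid cells went with the rise of the feeder fibroblast markers, of which 11 of 11 tested were higher in hybrid cells (median log2 fold change 1.37). From ESCs to EPSCs these markers rose as well (10 of 11 tested, median log2 fold change 1.18). There Bmp4 was 4.1-fold lower and Smad7 was not called. The part of feeder RNA in these values was not tested.

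The 4 Id genes did not move together. Their summed level was 83.0 and 84.4 FPKM in ESCs, 142 and 136 FPKM in EPSCs, 193 and 129 FPKM in hybrid cells, and 287 and 296 FPKM in NSCs. NSCs lay above all other libraries and ESCs below all others, whereas EPSCs and hybrid cells overlapped. The proteins share a helix-loop-helix region, and the most similar 90 coding bases of the 4 genes are printed to show how alike the family is there and that the transcripts can still be told apart, with capitals at the 52 positions that are the same in all 4.
Id1: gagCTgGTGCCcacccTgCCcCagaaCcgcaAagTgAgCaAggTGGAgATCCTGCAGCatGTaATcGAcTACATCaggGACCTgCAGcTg
Id2: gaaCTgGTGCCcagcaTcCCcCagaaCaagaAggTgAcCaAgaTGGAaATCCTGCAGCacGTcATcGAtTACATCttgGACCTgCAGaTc
Id3: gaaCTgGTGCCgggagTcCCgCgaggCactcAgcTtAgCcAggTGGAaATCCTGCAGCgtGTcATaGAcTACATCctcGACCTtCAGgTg
Id4: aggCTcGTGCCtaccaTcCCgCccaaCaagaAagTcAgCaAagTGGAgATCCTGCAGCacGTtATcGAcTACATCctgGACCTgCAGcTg
On GRCm38, the genes lie at chr2:152736251-152737410 (Id1, plus strand), chr12:25093799-25097140 (Id2, minus strand), chr4:136143497-136145755 (Id3, plus strand), and chr13:48261228-48266026 (Id4, plus strand), and each codes for a protein. Over the whole coding sequence, pairs of Id genes were 51.1% to 56.0% identical, with no identical run over 19 bases. No 100-base window of Id1, Id2, or Id3 occurs in another gene, and 0.293% of those of Id4 occur in the overlapping gene Gm49291.

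Id1 was the most even of the family. It was 46.3 and 35.3 FPKM in EPSCs, 40.1 and 30.9 FPKM in hybrid cells, 32.7 and 31.6 FPKM in ESCs, and 20.6 and 22.9 FPKM in NSCs. EPSC, hybrid cell, and ESC levels are neighbors in this order that were not shown to differ, and hybrid cells overlapped with both others. At equal replicate numbers, which are not stated to pair libraries, hybrid cells were below EPSCs in both (40.1 against 46.3 and 30.9 against 35.3 FPKM). Hybrid cells differed from EPSCs by a log2 fold change of -0.19 (95% interval -0.55 to 0.16, adjusted p = 0.333) and from ESCs by 0.13 (95% interval -0.23 to 0.48, adjusted p = 0.486), and the latter turned to -0.05 without hybrid cell library 1. EPSCs differed from ESCs by 0.32 (adjusted p = 0.102), called only without EPSC library 2 (adjusted p = 0.0265). Against NSCs, Id1 was 1.63-fold higher in hybrid cells (adjusted p = 0.00371), 1.88-fold in EPSCs (adjusted p = 0.000931), and 1.48-fold in ESCs (adjusted p = 0.0108). These calls were lost when libraries were scaled to a common sum (adjusted p = 0.625, 0.091, and 0.942), and the call for ESCs also without ESC library 1 (adjusted p = 0.0578) or NSC library 1 (adjusted p = 0.0794).

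Id2 was highest in NSCs and lowest in hybrid cells, although both parents were higher. It was 63.4 and 71.5 FPKM in NSCs, 24.9 and 33.4 FPKM in EPSCs, 10.8 and 12.4 FPKM in ESCs, and 4.79 and 10.1 FPKM in hybrid cells. Both hybrid cell libraries were below all others, although they differed 2.12-fold from each other, a gap larger than that of 99.5% of the genes tested. Hybrid cells were 3.9-fold below EPSCs (log2 fold change -1.89, SE 0.28, adjusted p = 0.00211) and 9.03-fold below NSCs (log2 fold change -3.09, SE 0.28, adjusted p = 2.03e-05), and EPSCs were 2.52-fold above ESCs (log2 fold change 1.25, SE 0.28, adjusted p = 0.00673). Without hybrid cell library 1 and without hybrid cell library 2, the log2 fold change was -1.42 and -2.37 against EPSCs and -2.62 and -3.56 against NSCs. These fits drop the gap between the hybrid cell libraries, so a call in them says nothing of that spread. Hybrid cells and ESCs were neighbors in order, with a log2 fold change of -0.64 (95% interval -1.31 to 0.02, adjusted p = 0.0816), called with the replicate number as a block (adjusted p = 0.017) and without hybrid cell library 2 (log2 fold change -1.11, adjusted p = 0.00179), whereas without hybrid cell library 1 it was -0.17 (adjusted p = 0.441).

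Id3 was also highest in NSCs, but in hybrid cells it stayed above the EPSC level, opposite to Id2. It was 202 and 199.8 FPKM in NSCs, 145 and 85.4 FPKM in hybrid cells, 67.4 and 64.5 FPKM in EPSCs, and 32.3 and 32.5 FPKM in ESCs. The groups did not overlap, but the hybrid cell libraries differed 1.69-fold, more than 98.7% of the genes tested. Hybrid cells were 1.74-fold above EPSCs (log2 fold change 0.75, SE 0.2, adjusted p = 0.022). This call was lost with 2 groups in the fit (limma adjusted p = 0.0616) and without filter (0.0511). It was also lost without either NSC library (log2 fold change 0.75) and without EPSC library 1 or 2 (0.78 and 0.71). Without hybrid cell library 1 the log2 fold change was 0.37 and without hybrid cell library 2 it was 1.12. The log2 gap between libraries was 0.75 in hybrid cells, beside 0.06 in EPSCs and 0.01 in ESCs and in NSCs. Either of these fits drops the hybrid cell gap, so a call in it says nothing of that spread. Hybrid cells were 3.55-fold above ESCs (log2 fold change 1.75, SE 0.2, adjusted p = 0.000228) and 1.75-fold below NSCs (log2 fold change -0.85, SE 0.2, adjusted p = 0.005). The latter had a log2 fold change of -0.47 without hybrid cell library 2. EPSCs were 2.03-fold above ESCs (log2 fold change 1, SE 0.2, adjusted p = 0.00406). In these comparisons among pluripotent cells, Id3 was higher where the feeder fibroblast markers were higher, and their part was not tested.

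Id4 was the least abundant Id gene and had its highest level in ESCs. It was 7.23 and 7.94 FPKM in ESCs, 3.77 and 2.45 FPKM in EPSCs, 3.5 and 2.96 FPKM in hybrid cells, and 1.05 and 1.36 FPKM in NSCs. EPSCs and hybrid cells overlapped and differed by a log2 fold change of 0.06 (95% interval -0.32 to 0.44, adjusted p = 0.805), whose sign changed under quantile normalization and without EPSC library 2 or hybrid cell library 1. EPSCs were 2.44-fold and hybrid cells 2.35-fold below ESCs (adjusted p = 0.000961 and 0.00103).

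**Figure D3:**
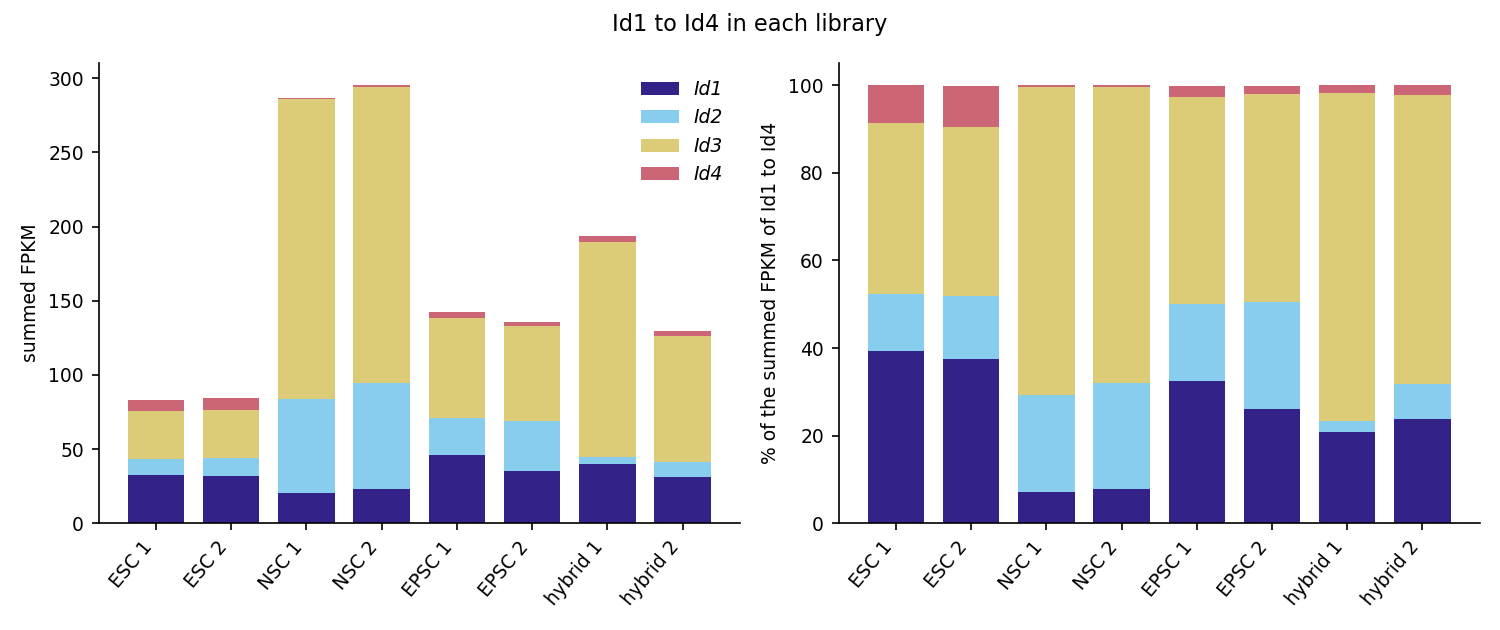
Summed FPKM of Id1 to Id4 in each library (left, bars from 0) and the share of each gene in that sum in percent (right). Id3 makes up 66.0% to 74.9% of the sum in NSC and hybrid cell libraries and 38.5% to 47.5% in ESCs and EPSCs.

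The makeup of the Id pool in hybrid cells combined a share of Id3 near that of NSCs with a share of Id2 below that of every other library. Id3 made up 70.5% ± 6.29 of the summed Id FPKM in hybrid cells, 69.0% ± 1.98 in NSCs, 47.4% ± 0.141 in EPSCs, and 38.8% ± 0.354 in ESCs. Id2 made up 5.16% ± 3.79 in hybrid cells, 23.1% ± 1.48 in NSCs, 21.1% ± 5.02 in EPSCs, and 13.8% ± 1.13 in ESCs. The share of Id1 was 38.4% ± 1.41 in ESCs, 29.2% ± 4.6 in EPSCs, 22.4% ± 2.19 in hybrid cells, and 7.46% ± 0.403 in NSCs, without overlap (SD, n = 2 throughout). These shares do not depend on how libraries are scaled, and they were not tested.

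The start regions of Id2, Id3, and Id4 are printed because Id2 and Id3 are highest in NSCs and Id4 is lowest there. Each window runs from 250 bases before to 50 bases after the RefSeq transcription start (GRCm38.p6) and is read 5′ to 3′ on the strand of the gene, which is chr12:25096043-25096342 on the minus strand for Id2, chr4:136143572-136143871 on the plus strand for Id3, and chr13:48260866-48261165 on the plus strand for Id4. Capitals mark matches to the GC-rich SMAD motif GGCGCC or to the CAGA box CAGAC, which on the other strand reads GTCTG.
Id2: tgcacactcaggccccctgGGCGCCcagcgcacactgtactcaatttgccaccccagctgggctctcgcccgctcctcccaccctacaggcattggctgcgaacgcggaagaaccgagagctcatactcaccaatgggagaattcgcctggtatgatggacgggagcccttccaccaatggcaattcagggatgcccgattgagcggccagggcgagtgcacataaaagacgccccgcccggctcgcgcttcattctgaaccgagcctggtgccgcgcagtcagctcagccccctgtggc
Id3: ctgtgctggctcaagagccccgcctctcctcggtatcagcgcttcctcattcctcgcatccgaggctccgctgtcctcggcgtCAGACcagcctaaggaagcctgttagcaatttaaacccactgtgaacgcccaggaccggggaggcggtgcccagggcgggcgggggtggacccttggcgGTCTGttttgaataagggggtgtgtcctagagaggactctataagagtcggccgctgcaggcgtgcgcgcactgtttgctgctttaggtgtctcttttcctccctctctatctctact
Id4: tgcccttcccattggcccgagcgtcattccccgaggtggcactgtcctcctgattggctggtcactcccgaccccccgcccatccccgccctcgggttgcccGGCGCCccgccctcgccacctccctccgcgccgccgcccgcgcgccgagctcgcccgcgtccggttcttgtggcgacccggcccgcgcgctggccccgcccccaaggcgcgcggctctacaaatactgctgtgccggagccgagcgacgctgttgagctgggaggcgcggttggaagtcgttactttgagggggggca
GGCGCC was found once in Id2 (231 bases upstream of the start) and once in Id4 (148 bases upstream), and 11.9% of 32851 promoter windows of this length hold it. Id3 held CAGAC on either strand at 167 and 68 bases upstream, and 49.6% of windows do. The windows had GC contents of 63.3%, 60.0%, and 73.3% (median of all windows 52.7%) and 21, 19, and 39 CG dinucleotides (median 7). Of the other members with a window, Tdgf1 held 1 CAGAC, and Nodal and Bmp4 held neither motif. The FOXH1 motif TGTGNATT, present in 3.6% of windows, was in none of the 6. Lefty1, Lefty2, Id1, and Smad7 are named only. A match describes letters and is not a binding site.

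Between hybrid cells and their EPSC parent, 7 of 10 genes were called by limma (all genes tested: 44.4%). Smad7, Bmp4, and Id3 were higher (3 of 10, all genes 22.5%), and Nodal, Lefty1, Tdgf1, and Id2 were lower (4 of 10, all genes 21.9%). The median log2 fold change of the 10 was -0.27, beside 0 for all 13239 genes tested. By the rule of a mean over 3 FPKM, taken here in the higher group, and a ratio over 3, 2 genes passed, Lefty1 and Id2 (all genes 0.866%), and without hybrid cell library 1 this was 1 gene.

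The comparison of EPSCs with ESCs asks how the extended state differs from conventional pluripotency. Each is a single line, and they also differ in medium and origin, so state, medium, and line cannot be told apart. Between EPSCs and ESCs, 7 of 10 were called (all genes 61.0%). Id2 and Id3 were higher (2 of 10, all genes 33.7%), and Nodal, Lefty1, Lefty2, Bmp4, and Id4 were lower (5 of 10, all genes 27.3%), with a median log2 fold change of -0.54 beside 0.04 for all genes. Lefty1 and Bmp4 passed the FPKM rule (2 of 10, all genes 2.57%). Between hybrid cells and ESCs, 8 of 10 were called (all genes 65.5%), with Smad7 and Id3 higher (2 of 10, all genes 35.3%) and Nodal, Lefty1, Lefty2, Tdgf1, Bmp4, and Id4 lower (6 of 10, all genes 30.2%). The median was -0.78 beside 0.04, and Lefty1 and Id3 passed the FPKM rule (2 of 10, all genes 3.63%). Without ESC library 1, Lefty2, Tdgf1, and Smad7 were no longer called, with log2 fold changes of -1.26, -0.29, and 0.29. These comparisons share libraries and are not independent of each other.

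Against NSCs, all 10 genes were called for hybrid cells, EPSCs, and ESCs, where 86.5%, 86.2%, and 84.7% of all genes were. Id2 and Id3 were lower in all 3 (2 of 10, beside 42.0%, 41.0%, and 41.9% of all genes), and the other 8 were higher (8 of 10, beside 44.5%, 45.2%, and 42.8%). The FPKM rule was passed by 6 of 10 genes for hybrid cells (all genes 15.8%), 7 of 10 for EPSCs (all genes 15.6%), and 9 of 10 for ESCs (all genes 15.0%). For Nodal, Lefty1, Lefty2, Tdgf1, and Bmp4 the fitted log2 fold change against NSCs depends on the added constant and is not given. When libraries were scaled to a common sum, the median log2 fold change of all genes moved from 0.06 to -0.5 for hybrid cells, from 0.08 to -0.48 for EPSCs, and from 0.03 to -0.46 for ESCs against NSCs, since FPKM summed to 415240 and 415412 in NSC libraries and to 600674 to 653796 in the others.

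**Figure D4:**
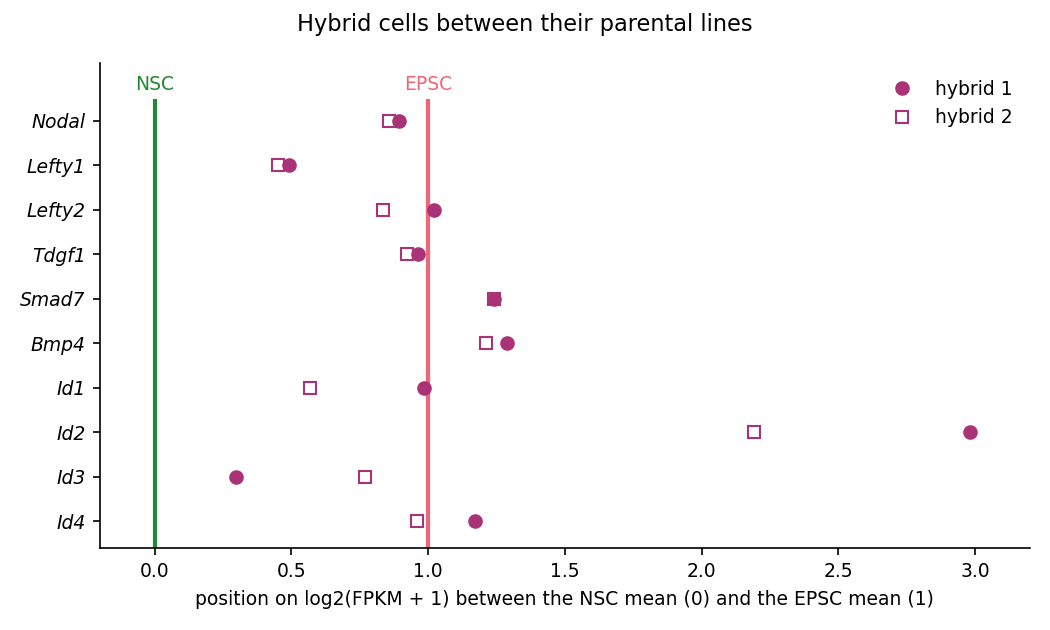
Position of each hybrid cell library on log2(FPKM + 1), for the 10 genes, where 0 is the mean of NSCs and 1 that of EPSCs. Bmp4 and Smad7 lie beyond the EPSC mean, Id2 lies far beyond it on the side away from NSCs, and Lefty1 lies between the parents, at a place that depends on the added constant of 1.

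On the scale from NSCs (0) to EPSCs (1), hybrid cells lay near the EPSC end for Nodal (0.875), Lefty2 (0.924), Tdgf1 (0.944), and Id4 (1.06). NSC values at or near 0 make this scale wide for Nodal, Lefty2, and Tdgf1. Hybrid cells were still 1.6-fold below EPSCs in Nodal and 1.4-fold in Tdgf1. Id3 lay at 0.532, between the parents. Lefty1 lay between them too, but its NSC values are near 0 and the added constant sets its place, which was 0.471 with a constant of 1 and 0.67 with 0.1. For the other genes near 0 in NSCs, a constant of 0.1 gave 0.921 for Nodal, 0.953 for Lefty2, 0.959 for Tdgf1, and 1.15 for Bmp4. The hybrid cell libraries differed in Id3, at 0.296 and 0.769. Id1 lay at 0.775, but at 0.265 after scaling to a common sum. Bmp4 and Smad7 were above all parental libraries (2 of 10, beside 18.7% of the genes tested), and Id2 was below all of them (1 of 10, beside 16.2%). Against the mean of both parents, hybrid cells held 4.3 times as much Bmp4, 2.69 times as much Smad7, 0.527 times as much Lefty1, and 0.155 times as much Id2. These positions use both parents and were not tested.

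The other genes of the pathways were taken from 9 lists of 57 genes, 45 of which passed the filter of a mean of 1 FPKM in at least 1 group. Between hybrid cells and EPSCs, 8 were higher (all genes 22.5%) and 9 lower (all genes 21.9%), with a median log2 fold change of 0.02 beside 0 for all genes. With only these 2 groups in the fit, 10 in all were called, and the share of all genes called in that fit is not given here. Of 8 ligand genes of the activin, Nodal, and TGF-beta list, 4 were higher and 4 were not called. Those higher were Inhbb and the TGF-beta ligand genes Tgfb1 (log2 fold change 0.42, adjusted p = 0.0111), Tgfb2 (0.55, adjusted p = 0.00609), and Tgfb3 (0.57, adjusted p = 0.0051), the last 3 named after their values were seen, whereas Inhba (0.54, adjusted p = 0.0765) and Gdf3 (-0.13, adjusted p = 0.198) were not called. Of 6 Nodal and activin inhibitors, 3 were lower and 3 were not called. Inhbb, a subunit of activin B, was 3.05 and 3.44 FPKM in EPSCs and 7.39 and 8.15 FPKM in hybrid cells (log2 fold change 1.05, SE 0.1, adjusted p = 0.000393). The TGF-beta type II receptor gene Tgfbr2 was 1.95 and 2.04 FPKM in EPSCs and 8.21 and 6.15 FPKM in hybrid cells (log2 fold change 1.44, SE 0.12, adjusted p = 0.000287). All 11 tested feeder fibroblast markers were higher in the same comparison (median log2 fold change 1.37), and their part in the rise of Inhbb, Tgfb1, Tgfb2, Tgfb3, and Tgfbr2 was not tested. None of the 3 tested BMP ligands other than Bmp4 was called by limma, and 1 of them, Bmp6, passed 0.05 only before adjustment (limma adjusted p = 0.0671).

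Between EPSCs and ESCs, 16 of 45 were higher (all genes 33.7%) and 8 lower (all genes 27.3%), with a median log2 fold change of 0.16 beside 0.04. The E protein genes, whose products are the partners of ID proteins, were all higher (3 of 3), and so were 3 of 4 BMP receptor genes, where 33.7% of all genes were. Of these, Acvr1 was close to the threshold (log2 fold change 0.36, limma adjusted p = 0.0466). Tcf12 was 5.61 and 5.0 FPKM in ESCs and 13.8 and 13.3 FPKM in EPSCs (log2 fold change 1.21, SE 0.07, adjusted p = 1.68e-05). Inhba, the subunit of activin A, was 0.502 and 1.02 FPKM in ESCs and 3.22 and 5.13 FPKM in EPSCs (log2 fold change 1.55, SE 0.22, adjusted p = 0.000683). The feeder fibroblast markers were higher in EPSCs as well (10 of 11 tested, median log2 fold change 1.18), and their part in the values of Inhba, the E protein genes, and the BMP receptor genes was not tested. Dusp9, a MAP kinase phosphatase gene that BMP4 induces in mouse ESCs, was 19.1 and 19.4 FPKM in ESCs and 33.1 and 55.5 FPKM in EPSCs (log2 fold change 1.12, SE 0.29, adjusted p = 0.0113), and the call was lost without ESC library 1 (adjusted p = 0.0605), ESC library 2 (adjusted p = 0.055), or EPSC library 2 (adjusted p = 0.059). In this comparison Dusp9 was higher where Bmp4 was lower, whereas both genes were lowest in NSCs. A link between them was not tested.

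**Figure D5:**
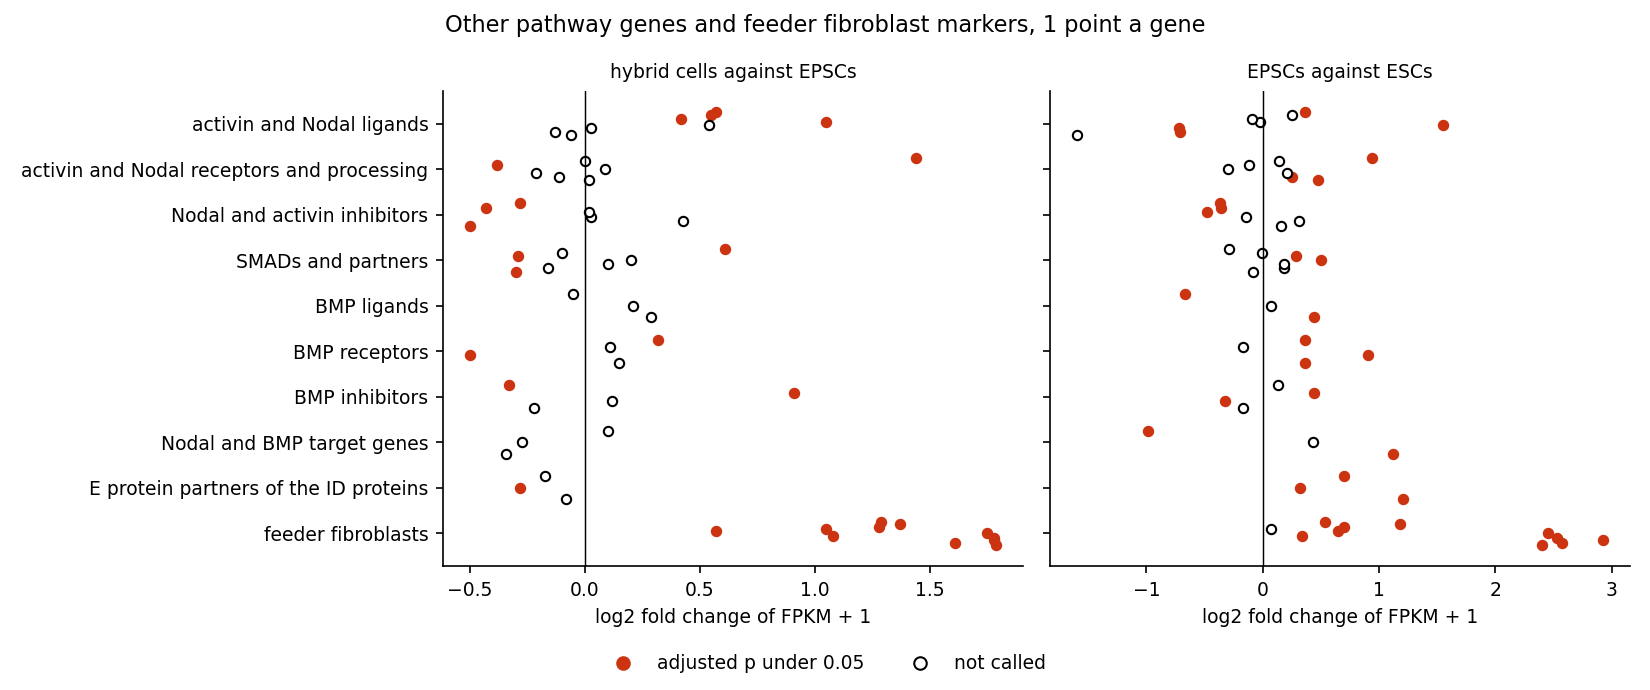
Log2 fold change of FPKM + 1 (horizontal axis, a scale of its own in each panel) of the listed pathway genes and the feeder fibroblast markers in hybrid cells against EPSCs and EPSCs against ESCs, with 1 point a gene, filled where the adjusted p was under 0.05. In hybrid cells against EPSCs, 8 pathway genes are higher and 9 lower, and 11 of 11 feeder markers are higher.

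Against NSCs, hybrid cells had 16 of 45 pathway genes higher (all genes 44.5%) and 23 lower (all genes 42.0%). All 4 BMP receptor genes and all 3 E protein genes were lower. Tcf12 was 142 and 144 FPKM in NSCs and 13.4 and 12.3 FPKM in hybrid cells (log2 fold change -3.38, SE 0.07, adjusted p = 1.01e-08). Tcf4, another E protein gene, was 80.0 and 85.2 FPKM in NSCs and 7.83 and 6.26 FPKM in hybrid cells (log2 fold change -3.38, SE 0.1, adjusted p = 4.37e-08), and Smad5, a BMP effector, was 58.4 and 61.9 FPKM against 6.39 and 5.61 FPKM (log2 fold change -3.13, SE 0.08, adjusted p = 2.82e-08). Of 8 ligand genes of the activin, Nodal, and TGF-beta list, 3 were higher and 4 lower (median log2 fold change -0.81). On log2(FPKM + 1), Gdf3, Foxh1, and Dusp9 had the 3 largest rises of the listed genes, an order that depends on the added constant. Gdf3, a ligand that acts with Nodal, was 0 and 0.0182 FPKM in NSCs and 66.6 and 58.2 FPKM in hybrid cells (adjusted p = 1.5e-09). Foxh1, the DNA-binding partner of SMAD2/3, was 0.03 and 0 FPKM in NSCs and 33.3 and 29.6 FPKM in hybrid cells (adjusted p = 6.47e-09). Dusp9 was 0.224 and 0.18 FPKM against 25.6 and 44.5 FPKM (adjusted p = 1.51e-06), a ratio of means of 173, and its fitted log2 fold change depended on the constant as well (4.85 with 1 and 6.81 with 0.1).

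The genes with the most similar pattern over the 8 libraries were ranked by Pearson's r of log2(FPKM + 1), as a description in which the contrast of NSCs with the rest weighs most. For Nodal these were Cbx7 (r = 0.9989), D230025D16Rik (0.9988), and Cox10 (0.9981), and 173 genes had an r over 0.99. For Lefty1 they were Gstt2 (0.9980), Pdk4 (0.9944), and Impact (0.9944), with 12 genes over 0.99. Gstt2 had means of 16.6, 0.0, 4.35, and 1.32 FPKM in ESCs, NSCs, EPSCs, and hybrid cells. For Bmp4 they were Oas1a (0.9990), Tbrg4 (0.9981), and Ddx27 (0.9971), with 69 over 0.99. For Id1 they were Psmd6 (0.9919), Ddias (0.9889), and Cdc26 (0.9856), with 1 over 0.99. Pearson's r does not compare the size of a change. Cox10 had means of 19.0, 12.6, 18.0, and 16.9 FPKM in ESCs, NSCs, EPSCs, and hybrid cells, beside 70.6, 0.0, 37.9, and 23.7 FPKM for Nodal. The shape of the Nodal pattern, not its size, was shared by many genes at an r over 0.99, and that of Id1 by few.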

How the data were processed

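FPKM of 8 mouse libraries, 2 for each of the 4 cell types, were analyzed. The authors prepared stranded poly-A libraries, trimmed reads with skewer, mapped them to mm10 with STAR 2.7.9a, and deposited FPKM values from Cuffnorm of Cufflinks 2.2.1 (versions per the submitters' processing notes), without pooling replicates. The gene annotation, strand setting, and library normalization are not given in the sources used here, and 0 columns belonged to other samples.

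Groups were compared with limma 3.58.1 in R 4.3.3 (lmFit, contrasts, eBayes with trend) on log2(FPKM + 1), which understates changes of low genes. All 8 libraries entered 1 fit (4 residual and 3.25 prior degrees of freedom) over 13239 genes, those whose mean reached 1 FPKM in any group. Tests were two-sided, and genes were called at a Benjamini-Hochberg adjusted p under 0.05. A rule after the study's methods (mean over 3 FPKM, taken here in the higher group, and ratio over 3) was applied without a test, and thresholds of 2, which also appear in the study's text, were an alternative. p-values rest on a spread pooled over the 4 groups, each of 1 line, and moderated toward that of other genes. A gap that is wide in only some groups, as for Lefty2 in EPSCs and hybrid cells, is therefore understated. The fit was also tried on simulated data, and the outcome is not reported here.

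The members, gene lists, and naming rule were chosen with earlier results of these data known. All members are described. Listed pathway genes are named where called with an absolute log2 fold change of at least 1 in hybrid cells against EPSCs or EPSCs against ESCs, or among the 3 largest in each direction in hybrid cells against NSCs. Genes of like pattern are the 3 with the highest r. Bmp6, Acvr1, and the TGF-beta ligand genes were named after their values were seen. Some listed genes and a sequence are not reported here.

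An effective depth, not a count of mapped fragments, was derived from FPKM steps in 2247 genes with 1 transcript over 1500 bases, assuming fragments of 200 bases, and 75.7% to 83.7% of low values were within 0.1 of a whole fragment. Positions and transcripts are from GENCODE M21 (GRCm38), and promoter windows from RefSeq, which matched 6 of 10 members. Alternatives were a constant of 0.1, no filter or a filter of 3 FPKM, scaling to a sum of 1000000, quantile normalization, 2 groups in the fit, a replicate block, thresholds of 2, and each library left out. Python 3.11.15 (pandas 2.3.3, numpy 2.4.6) was used.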

Additional observations from a re-analysis of the deposited data

How the results depend on the processing

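Of the 60 results of 10 genes in 6 comparisons, 44 kept their direction and side of the threshold under every alternative run. The sign turned for Id4 in hybrid cells against EPSCs (log2 fold change -0.01 with quantile normalization, -0.04 without hybrid cell library 1, and -0.18 to 0.29 over all libraries left out), for Lefty2 there (0.08 without EPSC library 1, 0.07 without hybrid cell library 2, and as low as -0.76), for Tdgf1 in EPSCs against ESCs (-0.07 with quantile normalization), and for Id1 in hybrid cells against ESCs (-0.05 without hybrid cell library 1, 0.31 without hybrid cell library 2). None of these 4 results was called in the first place. With thresholds of 2 in the FPKM rule, 5 genes passed for EPSCs against ESCs and 5 for hybrid cells against ESCs. For hybrid cells against EPSCs, Bmp4 (ratio 2.15) then passed beside Lefty1 and Id2. The share of all genes past thresholds of 2 is not given here, so these counts show nothing particular to the 10 genes. The causes of these changes were not tested. When each library was left out, the number of the 10 genes called was 5 to 7 for hybrid cells against EPSCs, 6 to 8 for EPSCs against ESCs, 5 to 8 for hybrid cells against ESCs, 9 to 10 for ESCs against NSCs, and 10 for hybrid cells or EPSCs against NSCs, and the number past the FPKM rule was 1 to 2, 2 to 3, 2 to 3, 9, 6 to 7, and 7 in that order. A library left alone in its group was assumed to vary like the others. Shares of all genes with a library left out are not given here. A move in these counts therefore cannot be told from a general move in calls.

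The sources name no pairing of libraries by replicate number, and whether EPSC libraries pair with hybrid cell libraries was not settled. Among the 10 genes, all but Smad7 moved the same way from library 1 to library 2 in both groups. Of these, Id2 was higher in library 2 and the rest were lower. The deviations of equally numbered libraries correlated at 0.28 for hybrid cells against EPSCs, and at -0.017 to 0.069 for all other comparisons but ESCs against NSCs (-0.112). When the replicate number entered limma as a block, it called 6060 in place of 5881 genes in hybrid cells against EPSCs and 8757 in place of 8667 in hybrid cells against ESCs, and of the 10 genes only Id2 in the latter changed its call. With NSC numbers crossed, a fit chosen after seeing the data, the block gave 11295 genes for ESCs against NSCs beside 11265 uncrossed and called all 10. Depth limits the low values, since 3 fragments correspond to 0.0226 to 0.142 FPKM over the 10 genes.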
